A study of Rattus norvegicus with 23 samples.

Results

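Aspartate tRNA reads in rat sperm were described from the 14 rows of the deposited tRNA table whose names start with tRNA-Asp-GTC-, out of 273 rows. Small RNA had been sequenced from sperm of the cauda epididymis, the storage segment of the duct, in 23 male Long-Evans rats with 1 library each. The 7 control rats breathed filtered air, 8 rats breathed 0.4 ppm ozone (chamber mean 0.401 ppm) and 8 breathed 0.8 ppm ozone (chamber mean 0.798 ppm). The labels describe 1 schedule of 4 h sessions, 3 in week 1 and 2 in week 2, and give no age and no genetic change. Whether ozone, an oxidant gas, alters the noncoding RNA of sperm was the question of the study. The design text names 8 rats a group, and 7 air libraries were analysed here.

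tRNA-Asp carries aspartate to the ribosome and reads the aspartate codons through the anticodon GTC. The first anticodon base of this tRNA is a guanosine that the tRNA-guanine transglycosylase exchanges for queuosine, a change shared with the Asn, His and Tyr tRNAs. A cytosine in the anticodon loop is methylated by Dnmt2 (Trdmt1), which also acts on tRNA-Gly-GCC and tRNA-Val-AAC, and in mice this enzyme has been tied to the inheritance of paternally acquired traits. Mature sperm hold little full-length tRNA, and most of their tRNA sequence is found as fragments, of which the 5′ fragments of Gly and Glu tRNAs are the best known. The tables count reads per tRNA row, so fragments and full-length molecules were not told apart.

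The row names follow the usual tRNA scheme, in which the first number after the anticodon stands for a distinct mature sequence and the second for a genomic copy of it. By that scheme the 14 rows are 1 copy of sequence 1, 11 copies of sequence 2 and 2 copies of sequence 3. The RefSeq annotation of the GRCr8 assembly, which is another build than the reads were aligned to, lists 26 aspartate tRNA genes among 766 tRNA genes. All 26 have a length of 72 bases, so levels of different rows are compared here without a length correction. Of the 26 genes, 24 have a tRNA gene as a neighbour and 20 lie on 1 chromosome. Copies of 1 sequence can share reads, and the rule for assigning them is one that the sources used here do not give. Values of single copies are therefore uncertain, and the sum over the 14 rows is the safer unit.

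The value of 1 read in each library was found from the low values of the tRNA table, and all 5186 values of fewer than 1000 reads were whole within 0.1 of a read. A second search for the step did not recover whole reads from this table, so reads are used here for depth and counting error and not for a test. The tables held between 164342 and 481504 tRNA reads a library, and the aspartate rows between 2602 and 15342. No value was 0 in the tRNA table, and no pair of libraries was identical. A set of 4 libraries stood apart from the other 19 by a list of leukocyte miRNAs, which held 4.59% to 6.26% of their miRNA table against 1.67% to 2.84% in the rest. They are air replicate 6, 0.4 ppm replicates 3 and 5 and 0.8 ppm replicate 7. All 5 miRNAs of the list were measured, and 99.0% to 99.7% of its signal in those 4 libraries was miR-146b-5p. The rest of the list, which includes the myeloid marker miR-223-3p and the pan-leukocyte miR-142, held 0.0218% to 0.0481% there against 0.0411% to 0.108% in the other 19. miR-223-3p was at 0 in 3 of the 4 and in 1 of the 19. The germ cell family miR-34 and miR-449, with 5 of 6 members measured, held 23.6% to 51.3% of the miRNA table over all libraries. Results whose call or direction differs without those 4 libraries are given both ways, here or in the closing section.

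Aspartate tRNA was among the more abundant tRNAs of these libraries. It held 1.93% ± 0.722 of the tRNA table (SD, n = 23), the 11th place among 55 sums of rows by anticodon. The Dnmt2 partner tRNA-Gly-GCC held 31.8% ± 4.30, and tRNA-Glu-CTC held 7.21% ± 1.38. In the single libraries the aspartate share ranged from 0.869% (Wilson 95% interval 0.837% to 0.903%) to 3.35% (3.27% to 3.44%). These intervals cover counting error only and are far narrower than the range between rats. In such bulk libraries fewer cells of a type and less RNA per cell cannot be told apart.

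The 14 rows fell into 4 levels. The single row of sequence 1, tRNA-Asp-GTC-1-1, had the highest mean at 1381 ± 410 normalised units (SD, n = 23) and was the highest aspartate row in 23 of 23 libraries. Then came 4 copies of sequence 2, called the higher copies here, with means of 959 for tRNA-Asp-GTC-2-2, 954 for 2-4, 954 for 2-8 and 945 for 2-3. The 7 other copies of sequence 2 (2-1, 2-5, 2-6, 2-7, 2-9, 2-10 and 2-11) had means from 156 to 167. The 2 copies of sequence 3 were lowest, with 74.8 for 3-1 and 71.1 for 3-2. Rows within a level had close means, and differences between them within a library were not tested.

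**Figure D1:**
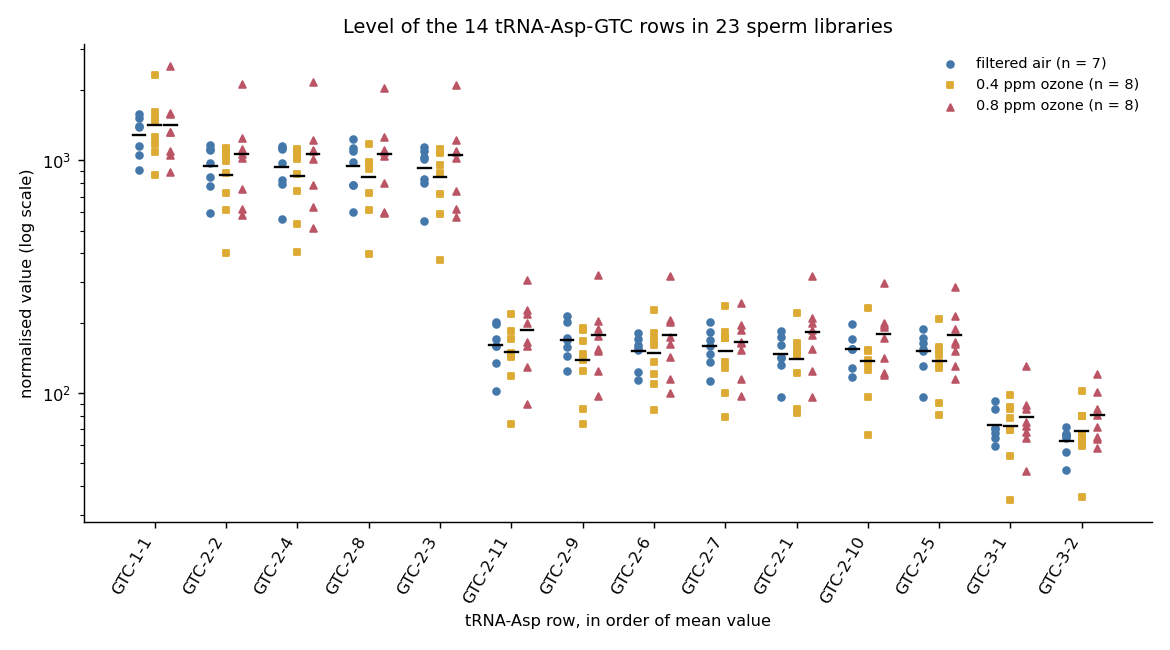
Normalised value on a log scale (y axis) of the 14 aspartate tRNA rows (x axis, in order of mean) in each library, with 1 point a rat (air n = 7, 0.4 ppm n = 8, 0.8 ppm n = 8) and black bars at the group means. The rows form 4 levels, with GTC-1-1 on top at a mean of 1381 and GTC-3-2 lowest at 71.1, and the 3 groups overlap in every row.

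All 4 higher copies of sequence 2 lay above all 7 lower copies in 23 of 23 libraries. The split was drawn after the values were seen and is given without a test. The mean of the higher copies was 5.90 ± 0.698 times that of the lower copies (SD, n = 23), with a range of 4.93 to 7.04. By group this ratio was 5.95 ± 0.604 in 7 air rats, 5.93 ± 0.781 in 8 rats at 0.4 ppm and 5.81 ± 0.772 in 8 at 0.8 ppm, so the groups differed by less than the spread between rats. Gaps between copies were also present in other tRNAs. Of 42 sequences of other tRNAs with at least 2 copies, 8 had a larger ratio of the highest to the lowest mean than the 6.15 of aspartate sequence 2.

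Within a level the copies differed about as much as counting noise allows. The variance of reads over the 4 higher copies was on average 1.09 times their mean, where a ratio of 1 is what independent counting gives. It was 1.07 for the 7 lower copies and 0.816 for the copies of sequence 3, against 375 over all 11 copies of sequence 2. The levels were drawn from these same values, so the ratios describe them and do not test them. Since copies of 1 sequence can share reads, a ratio near 1 does not show that the copies were counted apart. The 4 higher copies averaged 1010 reads a library and the 7 lower copies 173, so the lower copies are the less precise. As a description over the 23 libraries, which share their scaling and depth between rows, the log2 levels of pairs of sequence 2 copies had r from 0.886 to 0.994. Between sequences 1 and 2 r was 0.769 to 0.871, and between sequences 1 and 3 it was 0.650 to 0.661. A count of rows that move one way can therefore hold the same signal several times over.

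In each library the first question was whether aspartate tRNA took a different part of the tRNA reads after ozone. The share was not separated between groups by the test, and the highest values were in rats at 0.8 ppm. In air it ran from 0.966% through a median of 1.91% to 2.17%, with a mean of 1.71% ± 0.419 (SD, n = 7). At 0.4 ppm it ran from 0.899% through 1.57% to 3.03%, with a mean of 1.69% ± 0.695 (n = 8). At 0.8 ppm it ran from 0.869% through 2.52% to 3.35%, with a mean of 2.37% ± 0.815 (n = 8).

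Of the 8 rats at 0.8 ppm, 5 lay above every air rat, and the lowest rat of all 23 was also in that group. The mean at 0.8 ppm was 1.39 times that in air, a difference of 0.664 percentage points with a two-sided exact permutation p = 0.0774 (adjusted over the 3 pairs of groups, 0.140). It was 1.40 times that at 0.4 ppm, a difference of 0.683 points with an exact permutation p = 0.0932 (adjusted p = 0.140). Between 0.4 ppm and air the difference was -0.0196 points, with an exact permutation p = 0.948. Higher shares at 0.8 ppm were not particular to aspartate. With each library scaled to a fixed total, 84.6% of all 273 rows were higher at 0.8 ppm than in air. Their median log2 fold change was 0.28, and that of the aspartate rows was 0.41. The mean share of tRNA-Gly-GCC was 32.6% in air and 29.9% at 0.8 ppm, and that of tRNA-Leu-CAA 18.4% and 17.0%. Whether the aspartate difference exceeds that of other tRNAs was not tested.

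A single library decided on which side of the 0.05 threshold the 0.8 ppm comparisons fell. Without 0.8 ppm replicate 7, the lowest of the 23, the difference from air was 0.878 points (exact permutation adjusted p = 0.0262) and that from 0.4 ppm was 0.898 points (exact permutation adjusted p = 0.0331). That library is 1 of the 4 that stood apart. Without all 4 the difference from air was 0.755 points, 2.59% ± 0.586 (n = 7) against 1.83% ± 0.286 (n = 6), with an exact permutation p = 0.0175 and an adjusted p = 0.0524. The difference of 0.4 ppm from air then turned to 0.112 points (exact permutation p = 0.742). Leaving these libraries out was chosen after the data were seen.

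**Figure D2:**
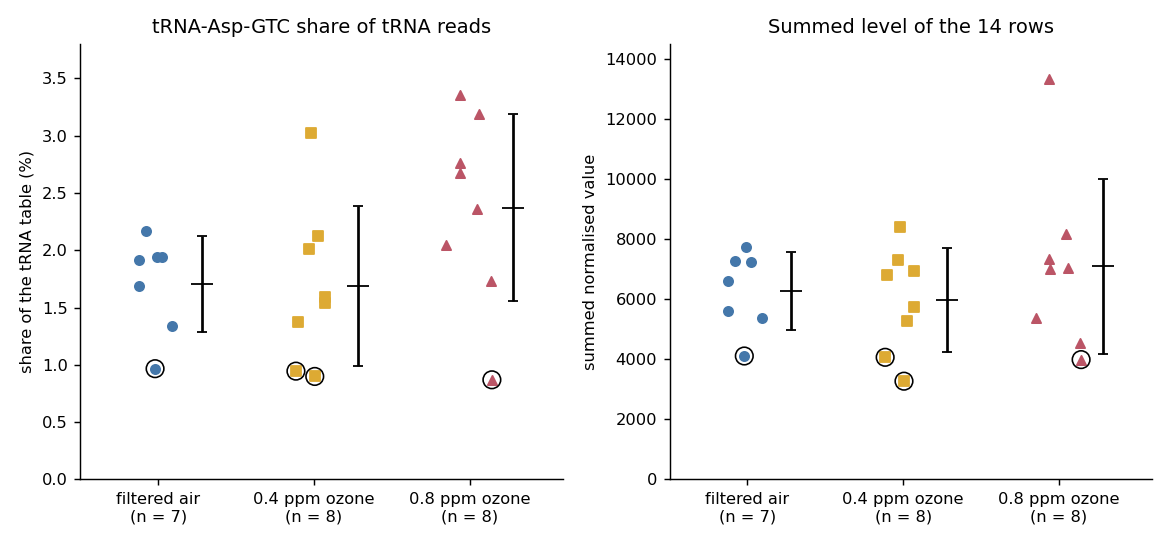
Left, share of the tRNA table held by the 14 aspartate rows (%, y axis), and right, their summed normalised value (y axis), by exposure group (x axis), with 1 point a rat, bars for the mean and SD beside them, and open rings around the 4 libraries that stood apart. At 0.8 ppm 5 of 8 shares lie above all air shares, and the ringed libraries hold the 4 lowest shares, from 0.869% to 0.966%.

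The 4 libraries that stood apart held the 4 lowest aspartate shares of the 23, between 0.869% and 0.966%, against 1.34% to 3.35% in the other 19. They include 1 air rat, 2 rats at 0.4 ppm and 1 at 0.8 ppm. Their miR-34 and miR-449 share was 23.6% to 35.0%, against 29.7% to 51.3% in the rest, and the 3 measured muscle and stroma miRNAs reached 11.3% of the miRNA table in 0.8 ppm replicate 7 against a median of 2.22% over all libraries. The part of these measures in the aspartate share was not tested.

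Over all 23 libraries the leukocyte list was the only one of 7 library measures whose Pearson correlation with the aspartate share passed adjustment (permutation adjusted p = 0.00371), and its Spearman correlation did not (permutation adjusted p = 0.0867). Of this list miR-146b-5p made up 94.5% to 98.2% in the 19 libraries and 99.0% to 99.7% in the 4 that stood apart. The libraries form 2 clusters on the leukocyte list, so its coefficient is given only within the larger cluster. Among the other 19 libraries the aspartate share and the leukocyte list had Pearson's r = -0.19 (permutation p = 0.442) and Spearman's rho = -0.16 (permutation p = 0.521), with r = 0.05 without the 2 libraries farthest from the median of the list. Of the 7 measures, none passed adjustment among the 19. The closest was the number of tRNA reads on a log2 scale, with r = -0.44 (permutation p = 0.054, adjusted p = 0.378) and rho = -0.34 (permutation p = 0.158), and r = 0.15 without the 2 farthest libraries.

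**Figure D3:**
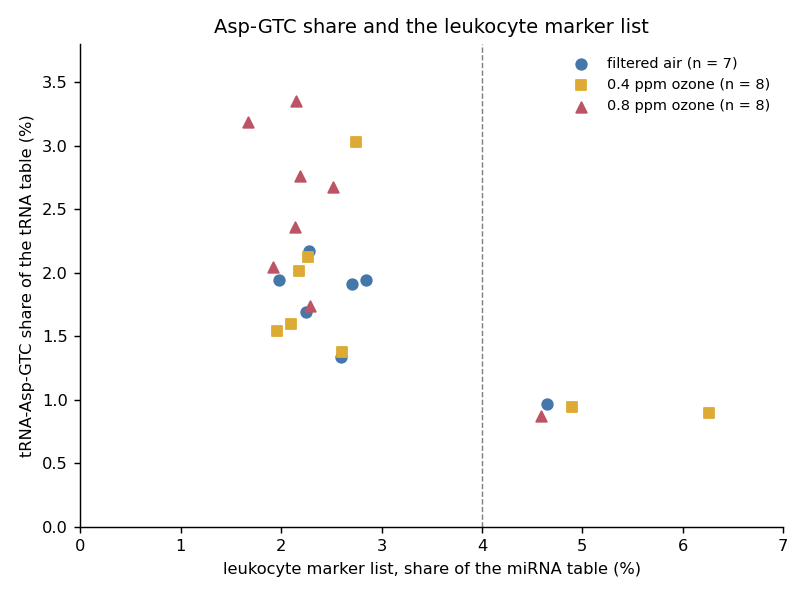
Aspartate share of the tRNA table (%, y axis) against the share of the miRNA table held by the leukocyte list (%, x axis) in 23 libraries, by exposure group, with a dashed line at 4%. The list is nearly all miR-146b-5p. The 4 libraries right of the line lie below 0.97% in aspartate share and come from all 3 groups, and the 19 left of it spread from 1.34% to 3.35%.

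The same question was then asked of the normalised level, on the authors' scale, where each library is scaled by the typical row of its tRNA table. The 14 rows summed to a lowest, median and highest value of 4110, 6596 and 7738 in air, 3271, 6289 and 8400 at 0.4 ppm, and 3989, 7031 and 13331 at 0.8 ppm. The groups overlapped almost fully, and 1 rat at 0.8 ppm, replicate 5, lay far above all others. Mean sums were 6274 ± 1300 in air (SD, n = 7), 5977 ± 1720 in the 8 rats at 0.4 ppm and 7099 ± 2908 in the 8 at 0.8 ppm.

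No change of the sum passed the test. In limma, with adjustment over 55 anticodon sums, the log2 fold change of 0.4 ppm against air was -0.10 ± 0.23 (SE; 95% interval -0.57 to 0.37; adjusted p = 0.807). That of 0.8 ppm against air was 0.11 ± 0.23 (-0.36 to 0.59; limma adjusted p = 0.895). That of 0.8 ppm against 0.4 ppm was 0.21 ± 0.22 (-0.24 to 0.67; limma adjusted p = 0.912). A linear trend was 0.15 ± 0.29 log2 units per ppm (limma adjusted p = 0.898). The direction of the 0.8 ppm difference from air rested on replicate 5, without which it was -0.03, and the trend was then -0.04. The direction at 0.4 ppm rested on 0.4 ppm replicate 5, without which the log2 fold change was 0.02, as it also was without the 4 libraries that stood apart.

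Of the 14 rows, 0 passed the test in any comparison. In limma 0 of 273 rows of the table passed in each comparison (0 percent called), so the table as a whole gave no call either. At an unadjusted p under 0.05 the aspartate rows again numbered 0, against 5.86% of all rows for 0.4 ppm against air, 1.83% for 0.8 ppm against air, 2.2% for 0.8 ppm against 0.4 ppm and 1.83% for the trend. An exact Wilcoxon rank-sum test also called 0 aspartate rows, with 0 of them at an unadjusted p under 0.05. Over all 273 rows that test called 0, and 7, 17 and 3 rows were under 0.05 for 0.4 ppm against air, 0.8 ppm against air and 0.8 ppm against 0.4 ppm.

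By sign, the aspartate rows leaned one way in each comparison on the authors' scale with all libraries, and not under every alternative. At 0.4 ppm 2 of 14 log2 fold changes against air were positive, with a median of -0.15, where 48% of all rows were positive and their median was -0.01. At 0.8 ppm 14 of 14 were positive against air, with a median of 0.11, where 47.6% of all rows were positive and their median was -0.02. Between the ozone groups 13 of 14 were higher at 0.8 ppm, with a median of 0.28, where 48.4% of all rows were positive and their median was -0.01. The 2 comparisons with air share the air rats, and copies of 1 sequence can share reads, so the 14 signs are not independent of each other. Without 0.8 ppm replicate 5 the median at 0.8 ppm against air was -0.03. With library weights 6 of 14 were positive in that comparison, and 5 of 14 for the trend, where 48.7% and 50.9% of all rows were. At 0.4 ppm against air quantile normalization gave 7 of 14, where 52.4% of all rows were positive. Without the 4 libraries that stood apart it was 6 of 14, with a median of -0.02, where 50.5% of all rows were positive.

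The sign counts depend on the scaling. The whole tRNA table summed to 309559 ± 82638 normalised units at 0.8 ppm, against 373594 ± 45278 in air and 373679 ± 83490 at 0.4 ppm. Scaled instead to a fixed total per library, the median of all rows was 0.28 at 0.8 ppm against air, with 84.6% positive, and 0.27 against 0.4 ppm, with 79.5% positive. The aspartate median was then 0.41 and 0.56, which left it 0.13 and 0.28 above that of all rows. This scaling shifts all rows of a library nearly alike, so it could hardly change that gap. The gap was 0.17 and 0.17 with quantile normalization, and -0.03 and 0.04 with library weights. With the fixed total 1 aspartate row against air and 7 against 0.4 ppm had an unadjusted limma p under 0.05. They were among 10 and 18 of all 273 rows, and 0 passed adjustment.

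**Figure D4:**
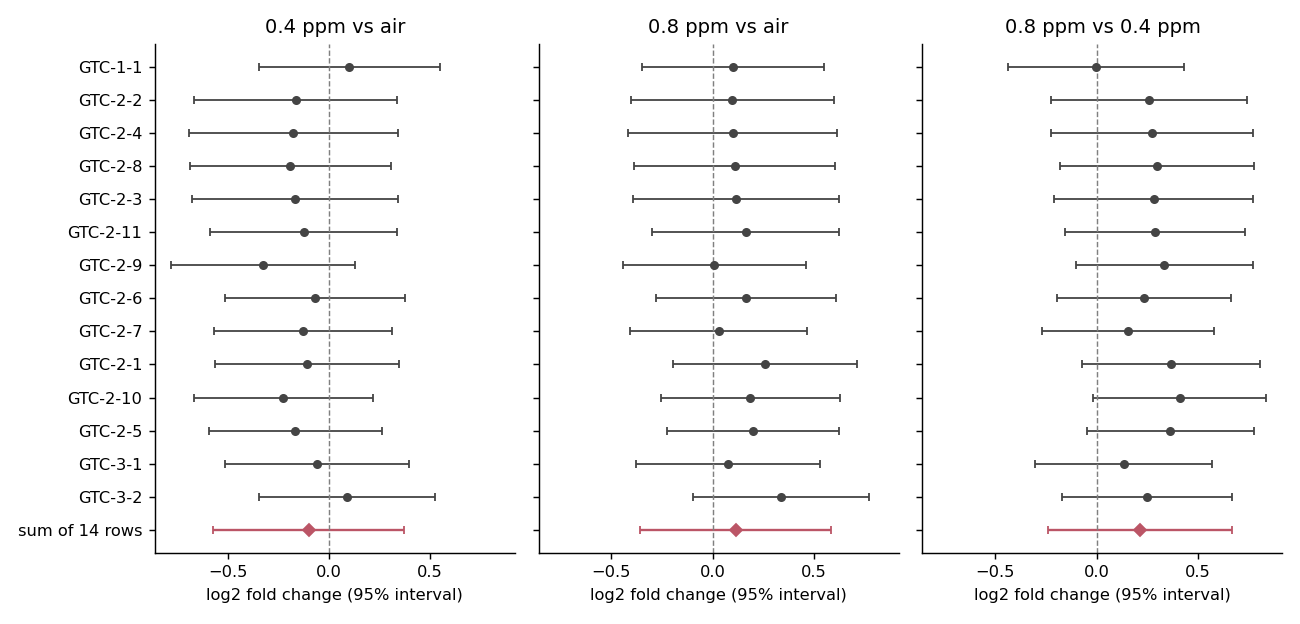
Log2 fold change (x axis) with its 95% interval from limma for each of the 14 aspartate rows (y axis, in order of mean) and, as a diamond, for their sum, in the 3 comparisons of groups. Every interval of the 14 rows and of the sum crosses 0, and the sums lie at -0.10, 0.11 and 0.21.

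The single rows with the smallest p were 2 lower copies of sequence 2 and 1 copy of sequence 3. For tRNA-Asp-GTC-2-9 the lowest, median and highest values were 124, 169 and 215 in air, 74.2, 143 and 190 at 0.4 ppm, and 97.7, 166 and 322 at 0.8 ppm. The groups overlapped, and the log2 fold change of 0.4 ppm against air was -0.33 ± 0.22 (limma adjusted p = 0.779). For 2-10 the values were 117, 155 and 198 in air, 66.1, 137 and 233 at 0.4 ppm, and 120, 183 and 298 at 0.8 ppm. This row had the smallest p of any aspartate row, with a log2 fold change between the ozone groups of 0.41 ± 0.21 (limma adjusted p = 0.751).

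For tRNA-Asp-GTC-3-2, the lowest row, the values were 47.0, 65.6 and 71.5 in air, 35.9, 65.2 and 102 at 0.4 ppm, and 58.4, 76.1 and 121 at 0.8 ppm. The highest air rat lay under the median of the 0.8 ppm rats, and the ranges overlapped. The log2 fold change of 0.8 ppm against air was 0.34 ± 0.21 (limma adjusted p = 0.935), and the trend was 0.43 ± 0.26 per ppm (limma adjusted p = 0.944). This row rests on 31 to 221 reads a library.

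The higher copies of sequence 2 had near-equal values in each rat. tRNA-Asp-GTC-2-2 had a lowest, median and highest value of 596, 975 and 1166 in air, 399, 941 and 1132 at 0.4 ppm, and 582, 1045 and 2122 at 0.8 ppm. Rows 2-4, 2-8 and 2-3 had medians of 979, 981 and 1016 in air, 943, 946 and 916 at 0.4 ppm, and 1061, 1065 and 1056 at 0.8 ppm. In all 4 rows the top value belonged to 0.8 ppm replicate 5 and the remaining rats of the 3 groups overlapped. Their log2 fold changes at 0.8 ppm against air lay near that of 2-2, which was 0.10 ± 0.25 (limma adjusted p = 0.976).

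tRNA-Asp-GTC-1-1 had the opposite sign to every copy of sequence 2 at 0.4 ppm against air. Its lowest, median and highest values were 913, 1393 and 1578 in air, 867, 1374 and 2330 at 0.4 ppm, and 896, 1321 and 2551 at 0.8 ppm. The medians were close and the ranges overlapped. The log2 fold changes were 0.10 ± 0.22 at 0.4 ppm against air (limma adjusted p = 0.864) and 0.10 ± 0.22 at 0.8 ppm against air (limma adjusted p = 0.976). At 0.4 ppm it was 1 of the 2 aspartate rows with a positive sign, which turned to -0.01 without 0.4 ppm replicate 6.

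The makeup of the aspartate signal was compared next, since a share within it does not depend on scaling. Sequence 1 made up 18.9% to 22.2% of aspartate reads in air, with a median of 21.1% and a mean of 20.7% ± 1.19 (SD, n = 7). At 0.4 ppm it made up 20.3% to 33.2%, with a median of 22.7% and a mean of 24.0% ± 4.43 (n = 8). At 0.8 ppm it made up 18.7% to 24.0%, with a median of 19.6% and a mean of 20.5% ± 1.95 (n = 8). Sequence 1 was thus most variable at 0.4 ppm, where replicates 5 and 6 stood at 33.2% and 27.7%.

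Sequence 2 took the other side of this balance, with 77.1% ± 1.32 in air (n = 7), 73.5% ± 4.37 in the 8 rats at 0.4 ppm and 77.2% ± 2.15 in the 8 at 0.8 ppm. Sequence 3 held 2.20% ± 0.276, 2.43% ± 0.702 and 2.35% ± 0.350. For 0.4 ppm against air sequence 1 differed by 3.38 percentage points (exact permutation p = 0.0488) and sequence 2 by -3.60 points (exact permutation p = 0.0347). For 0.8 ppm against 0.4 ppm the differences were -3.55 points (exact permutation p = 0.0396) and 3.63 points (exact permutation p = 0.0402). None of the 4 passed adjustment over 3 sequences and 3 pairs of groups, with an adjusted p of 0.110 for each. Between 0.8 ppm and air sequence 1 differed by -0.173 points (exact permutation p = 0.841).

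The call on this makeup depended on single libraries. Without 0.4 ppm replicate 4 or without 0.4 ppm replicate 8 all 4 differences passed, with exact permutation adjusted p of 0.0455 and 0.0483. Without 0.4 ppm replicate 5, the difference of sequence 1 from air was 2.07 points, and without the 4 libraries that stood apart it was 2.56 points (exact permutation p = 0.0563, adjusted p = 0.169).

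**Figure D5:**
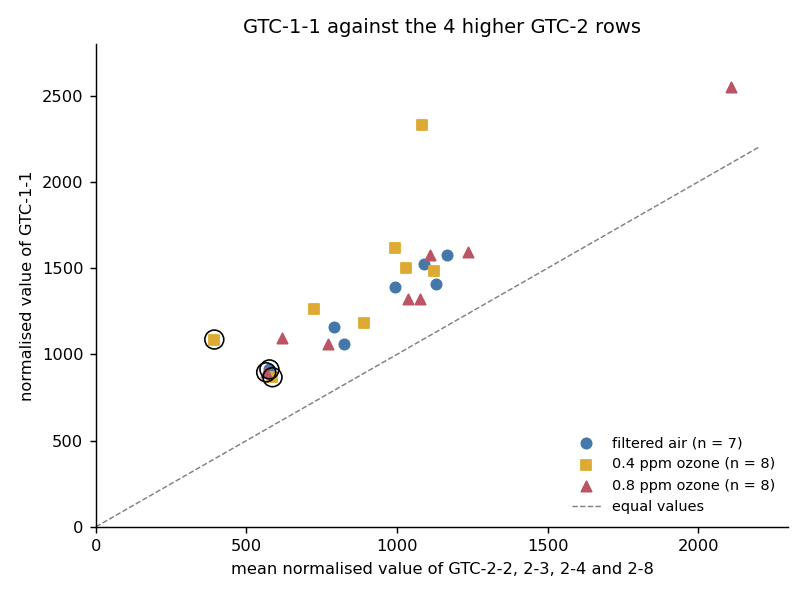
Normalised value of GTC-1-1 (y axis) against the mean normalised value of the 4 higher copies of sequence 2 (x axis) in 23 libraries, by exposure group, with a dashed line of equal values and open rings around the 4 libraries that stood apart. Every library lies above the line, and the ratio runs from 1.21 to 2.76, the highest in 0.4 ppm replicate 5.

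Measured as a ratio, tRNA-Asp-GTC-1-1 stood at 1.39 ± 0.113 times the mean of the higher copies in air (SD, n = 7). It was 1.73 ± 0.497 in the 8 rats at 0.4 ppm and 1.39 ± 0.195 in the 8 at 0.8 ppm. The highest ratio was 2.76, in 0.4 ppm replicate 5. The ratio of sequence 3 to the lower copies of sequence 2 was 0.468 ± 0.0923 over the 23 libraries, and its highest value, 0.843, was in 0.4 ppm replicate 3. Both copies of sequence 3 lay below all lower copies in 22 of 23 libraries.

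The other tRNAs that carry queuosine gave no call beside aspartate. In limma 0 of 26 rows (13 of Asn-GTT, 10 of His-GTG and 3 of Tyr-GTA) passed in any comparison. Their median log2 fold change was -0.02 at 0.4 ppm against air with 13 of 26 positive, and 0.11 at 0.8 ppm against air with 20 of 26 positive. The aspartate medians in the same comparisons were -0.15 and 0.11. The list is mixed at 0.4 ppm against air. There His-GTG had 10 of 10 rows positive (median 0.30), Asn-GTT 2 of 13 (-0.19) and Tyr-GTA 1 of 3 (-0.19). tRNA-Asn-GTT-1-5, the most abundant of these rows, had a mean of 367 normalised units, below each of the 5 highest aspartate rows.

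The Dnmt2 partners of aspartate also gave no call, with 0 of 16 rows (11 of Gly-GCC and 5 of Val-AAC) past the limma test. Their median log2 fold change was 0.15 at 0.4 ppm against air, with 9 of 16 positive, and -0.25 at 0.8 ppm against air, with 2 of 16 positive. Between the ozone groups it was -0.41, with 0 of 16 positive, where aspartate had 0.28 with 13 of 14 positive. At 0.4 ppm against air Val-AAC had 5 of 5 rows positive (median 0.30) and Gly-GCC 4 of 11 (-0.03). Whether the queuosine and Dnmt2 lists differ from aspartate was not tested. The Glu tRNAs, which carry the other acidic amino acid, had 0 of 19 rows past the test and medians of 0.21, -0.06 and -0.23 in the same order. Between the ozone groups Glu-CTC had 0 of 9 rows positive (median -0.34) and Glu-TTC 6 of 10 (0.01).

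The level pattern of the aspartate sum over the 23 libraries was most like that of tRNA-Glu-TTC, with r = 0.56 between log2 sums, followed by tRNA-Leu-AAG with 0.50 and tRNA-Thr-AGT with 0.49. The lowest was tRNA-Ser-GCT at -0.72. These are descriptions of libraries that share their scaling, and on log2 shares of the table the same 4 values were 0.57, 0.76, 0.70 and -0.01. The mean of tRNA-Glu-TTC was 15179 ± 5248 in the air rats (SD, n = 7), 12392 ± 5184 in those at 0.4 ppm (n = 8) and 12702 ± 6023 in those at 0.8 ppm (n = 8), so that it did not share the order of the aspartate means over the groups.

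The table also held 2 rows named tRX-Asp-NNN, tRNA-like genes that are not part of the aspartate set above. Their means were 44.1 and 42.1 normalised units, below the lowest aspartate row.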

How the data were processed

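Small RNA (under 200 nucleotides) of 23 rat sperm libraries was read on an Illumina NextSeq for 75 cycles, per the labels' protocols, and RNA integrity numbers were 2 to 4. Partek, Bowtie 1.0.0 and the build rn6 are named per the submitters' processing notes. The rule for reads shared by tRNA copies, and length filters, are not given in the sources used here. Values in the tRNA and miRNA tables are read signal that the authors scaled within each table. The kind of scaling was not examined in the miRNA table. In the tRNA table every library has the same median ratio to the geometric mean library. That scaling was found from the values, and no count test was run, since a second step search did not recover whole tRNA reads.

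All 273 rows, each above 0 in at least 8 libraries, entered 1 model of the 3 groups on log2(value + 1), fitted with limma 3.58.1 (R 4.3.3) with its trend and robust options. It was fitted again to 55 sums by anticodon. Adjusted p is Benjamini-Hochberg over the table within a comparison, two-sided, at 0.05. The added 1 makes fold changes of low rows too small. Differences of mean shares had an exact permutation test, two-sided, and correlations 100000 permutations (Python 3.11.15, scipy 1.17.1). All 14 members are accounted for. Values by group were given for the 5 highest, for the smallest p in each comparison and for the lowest. The 3 most like and the 1 least like anticodon sum were named, with values by group for tRNA-Glu-TTC alone. The fit was tested on simulated data with rows drawn independently and changes larger than those of the aspartate rows. That test therefore does not show the power for the aspartate rows. The members, lists and tests were chosen with earlier results of these data known. The rats are separate animals, with no batch label. Library names end in a number from S1 to S12, and the same number occurs on more than 1 library. What these numbers stand for is not given, and no fit included them. Alternatives were pseudocounts of 0.1 and 10, no filter or a mean of at least 50, other scalings, library weights, a depth covariate, the compared groups alone, a Wilcoxon test, other denominators, and leaving out each rat or the 4 libraries whose leukocyte list was over 4% of the miRNA table.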

Additional observations from a re-analysis of the deposited data

Results flagged for a closer look

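In 39 sets of values, each the libraries of 1 group, the highest or lowest library was compared with its nearest neighbour, and 8 lay farther out than Dixon's 95% critical value, which chance alone passes in about 5% of sets. Of the 8, 7 belong to 1 rat, 0.8 ppm replicate 5, and are not independent of each other. Its summed aspartate level was 13331, with the next rat of its group at 8158. Its values were 2551 for tRNA-Asp-GTC-1-1, 2122 for 2-2, 2100 for 2-3, 2161 for 2-4, 2050 for 2-8 and 298 for 2-10. That library has the fewest tRNA reads of the 23, 164342, and its aspartate share of 3.35% was the highest, with the next of its group at 3.19%. The share of the aspartate signal held by sequence 3 was 4.07% in 0.4 ppm replicate 3, with the next rat at 2.52%. That library is 1 of the 4 that stood apart on the leukocyte list.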

How the results depend on the processing

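The count of aspartate rows past the threshold was 0 under every alternative run, also without each rat in turn. No paired analysis was possible because the rats' numbers are unique and the groups share none. Library weights turned the sum to -0.0578 at 0.8 ppm against air and -0.085 for the trend, and tRNA-Asp-GTC-1-1 to -0.10 and -0.15; with them limma called 22 and 32 rows of the table and 0 aspartate rows, and the aspartate median between the ozone groups was 0.05. Scaling to a fixed total moved the aspartate medians to 0.41, 0.56 and 0.54 (0.8 ppm against air, against 0.4 ppm, trend). For tRNA-Asp-GTC-1-1 between the ozone groups (-0.0026) it gave 0.28, quantile normalization 0.19 and a depth covariate 0.045, which also gave -0.00576 at 0.4 ppm against air. Without the tRX rows in the denominator the share at 0.4 ppm differed from air by 0.0016 points. With Gly-GCC, Gly-CCC and Leu-CAA left out of it, the share was 5.20% at 0.8 ppm against 4.22% in air (exact permutation p = 0.218, against 0.0774 for the whole table), and 0.4 ppm differed from air by -0.390 points. On log2 shares the 0.8 ppm difference from air was 0.42 (exact permutation p = 0.161). Without the 4 libraries that stood apart, a setting added after the data were seen, the 0.4 ppm sum was 0.021, its share difference 0.112 points, and sequence 3 differed between the ozone groups by 0.0917 points. The cause was not tested.

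Leaving out each rat gave the sum -0.20 to 0.016 (0.4 ppm against air), -0.029 to 0.22 (0.8 ppm against air) and -0.036 to 0.27 (trend). The share differences ran from -0.211 to 0.0933 points, from 0.524 to 0.878 and from 0.543 to 0.898. Sequence 1 ran from 2.07 to 3.91 points (0.4 ppm against air), -0.680 to 0.0834 (0.8 ppm against air) and -4.08 to -2.24 (0.8 ppm against 0.4 ppm). Sequence 2 ran from -4.20 to -2.33, -0.298 to 0.579 and 2.36 to 4.22. Sequence 3 ran from -0.00925 to 0.298 (0.4 ppm against air) and -0.148 to 0.159 (0.8 ppm against 0.4 ppm, turned by 0.4 ppm replicate 3). For tRNA-Asp-GTC-1-1 the ranges were -0.0095 to 0.19, -0.031 to 0.18, -0.13 to 0.11 and -0.039 to 0.23.

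Over 23 libraries the share had r = 0.032 with miRNA reads, 0.39 with miR-34 and miR-449, -0.40 with the muscle list and 0.16 with the erythrocyte list. Without the 2 libraries farthest from the median of each measure these were 0.58, 0.13, -0.11 and 0.21. With tRNA reads r was -0.15 over 23 libraries and 0.49 without the 2 farthest. With the miR-200 list r was 0.30 and -0.27 in that order. With group means removed it was 0.47 (permutation adjusted p = 0.0641) and 0.0038. Among the 19 the coefficients for miRNA reads, miR-34 and miR-449, the muscle list and the erythrocyte list were -0.34, -0.16, 0.11 and -0.031. There r with the leukocyte list was -0.19, no longer past adjustment. Over 23 libraries r with miRNA reads was -0.033 with group means removed and -0.15 for the level. With group means removed the leukocyte list, nearly all miR-146b-5p, again passed (permutation adjusted p = 0.00546). There r with the muscle list was -0.57 (permutation adjusted p = 0.0189) and -0.15 without the 2 farthest libraries. Rows of 30 to 221 reads a library, those of sequence 3, are the least precise.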
